A study of Mus musculus with 6 samples.

Results

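The transcription factors that lay out the regions of the hypothalamus were examined in female C57Bl/6J mice, in pooled RNA of the hypothalamus on 6 arrays of the Affymetrix Mouse Gene 1.0 ST type. The list holds 35 genes chosen by name for their part in hypothalamic regions. Of these, 34 had a probeset annotated to a single gene, each of them exactly 1, and Lmx1a was not analysed here. All 34 passed the signal filter (a mean of at least 6 on the log2 scale over the 6 arrays) and stand among 18239 tested probesets of 16663 genes. The 3 arrays of the control group (CON) came from mice that the labels describe only as controls. The 3 arrays of the CGP group came from mice whose mothers had received CGP 39551, an antagonist of the NMDA receptor (NMDAR), by mouth at 5 mg/kg during pregnancy and up to the end of weaning. Both groups were 21 weeks of age, long after exposure had ended, and RNA from 18 mice was pooled in each. Nothing in the labels says that the 3 arrays of a group were separate pools, so that the errors and p-values below cover array-to-array spread alone, possibly technical, and not that between mice.

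Regional identity in the developing hypothalamus is set by combinations of transcription factors, most of them homeodomain proteins, that divide the neuroepithelium into the territories from which the nuclei arise. Many of these factors continue to be made in the adult neurons of the same nuclei, where they maintain neuropeptide expression, and several are shared with the thalamus, the subpallium or the midbrain. Their signals in adult tissue thus mark which regional neurons a sample holds, although a lower number of such neurons and less RNA per neuron cannot be told apart in pooled tissue. The label of the tissue was checked first. Of 12 genes that define hypothalamic neurons 11 were measured, and their mean log2 signal lay between 10.27 and 10.35 on the CON arrays and between 10.25 and 10.29 on the CGP arrays. None of the 11 passed the test, and the orexin gene Hcrt, with 12.51 ± 0.050 for CON and 12.54 ± 0.037 for CGP (SD over 3 arrays), was bright on every array. The anterior pituitary genes Gh (13.268 in CON, 13.66 in CGP) and Prl (13.223 and 13.325) had higher signals still. The check thus does not show that the samples held hypothalamus alone.

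The differences of most regional factors were small, and that of Lhx9 was the largest. Lhx9 rose with CGP, none of the factors fell, and 33 did not pass the test (limma, adjusted p under 0.05 over all tested probesets). Over the whole array 0.154% of the tested probesets rose and 0.126% fell. Without adjustment, 3 factors were higher (Lhx9, Prox1 and Meis2) and 3 lower (Lhx1, Sim1 and Nkx2-1) at p under 0.05. These 6 are 17.6% of the factors, beside 11.1% of all tested probesets, of which 5.25% were higher and 5.83% lower. Of the 34 differences, CGP minus CON on the log2 scale, 22 were above 0, which is 64.7%, against 47.9% of all tested probesets. Their median was 0.036, and that of all tested probesets was -0.0031. In 27 factors the difference was smaller than 0.1 either way. For the 33 factors that did not pass, the adjusted p from limma ran from 0.289 to 0.962, and their 95% intervals all lay between -0.26 and 0.26, short of the 0.485 that corresponds to the study's threshold of 1.4-fold. These intervals cover the spread between arrays only, and a factor that missed the threshold is not thereby shown to be equal in the groups.

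**Figure D1:**
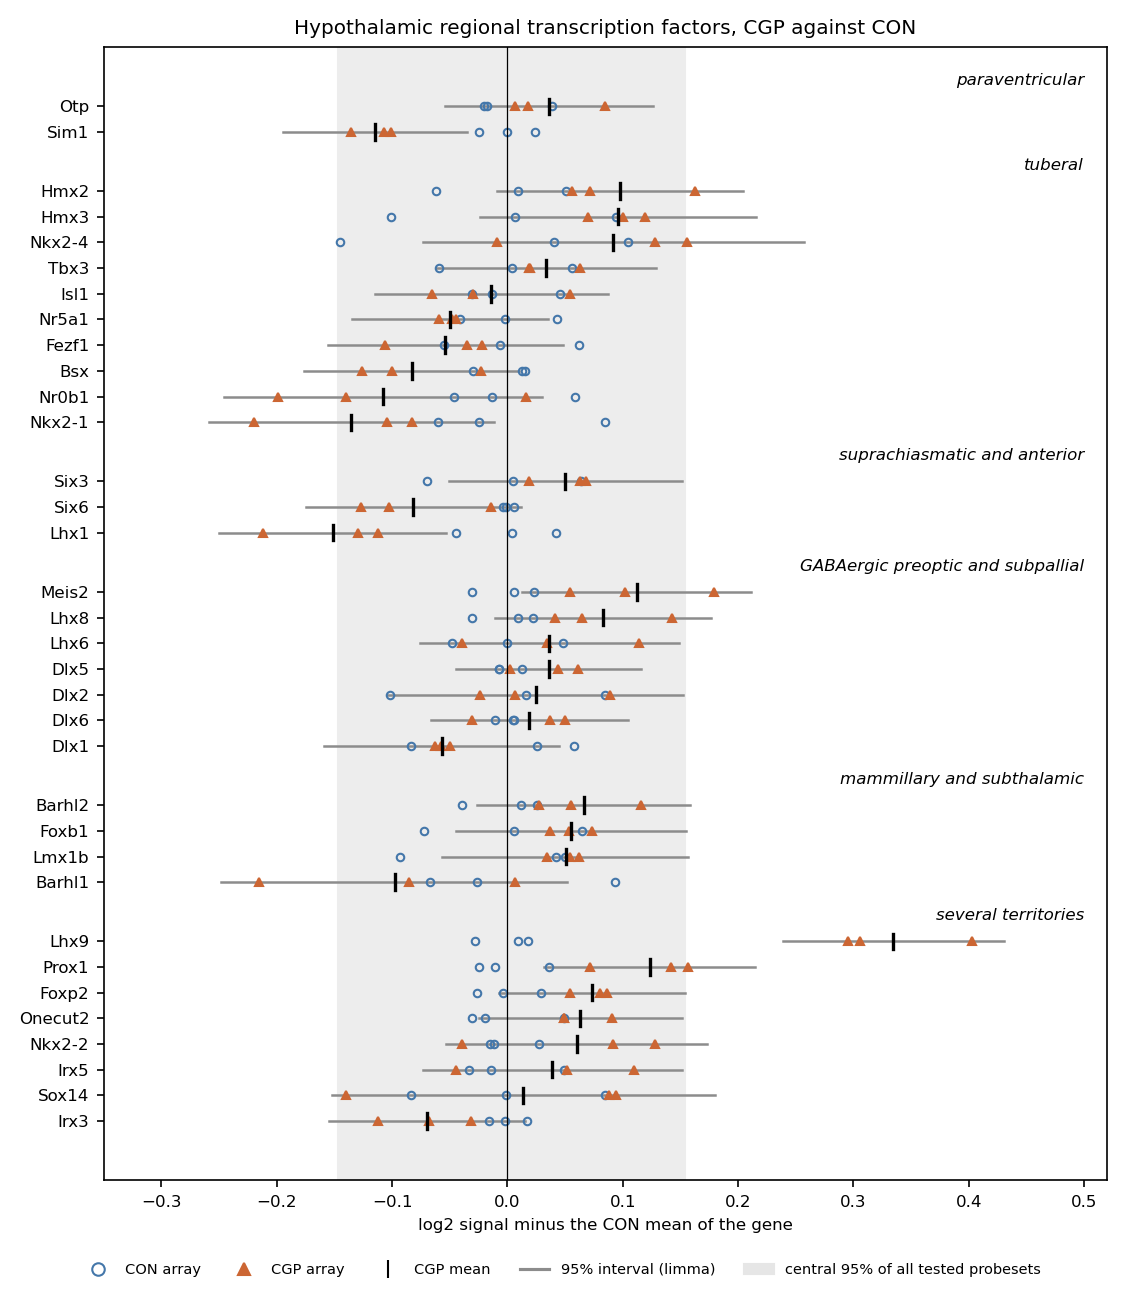
Each of the 34 regional transcription factors by hypothalamic region, with the log2 signal of every array minus the CON mean of the same gene on the horizontal axis: CON arrays are drawn as circles and CGP arrays as triangles (3 each), with the black tick at the CGP mean, the line the 95% interval of the difference from limma, and the grey band (-0.147 to 0.154) the central 95% of differences over all tested probesets. Lhx9 stands at 0.33, and only Lhx1, at -0.15, also lies outside the band.

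The arrays of the groups lay wholly apart for 13 of the 34 factors. In 7 of them (20.6%) every CGP array was above every CON array, against 7.59% of all tested probesets, and in 6 (17.6%) every CGP array was below every CON array, against 9.95%. The higher ones were Lhx9, Prox1, Meis2, Hmx2, Lhx8, Foxp2 and Barhl2, and the lower ones were Lhx1, Nkx2-1, Sim1, Six6, Irx3 and Nr5a1. Centring each array on its median took Lhx8, Irx3 and Nr5a1 out of this set and brought in Dlx5, which left 7 higher and 4 lower, beside 10.1% and 8.31% of all tested probesets.

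**Figure D2:**
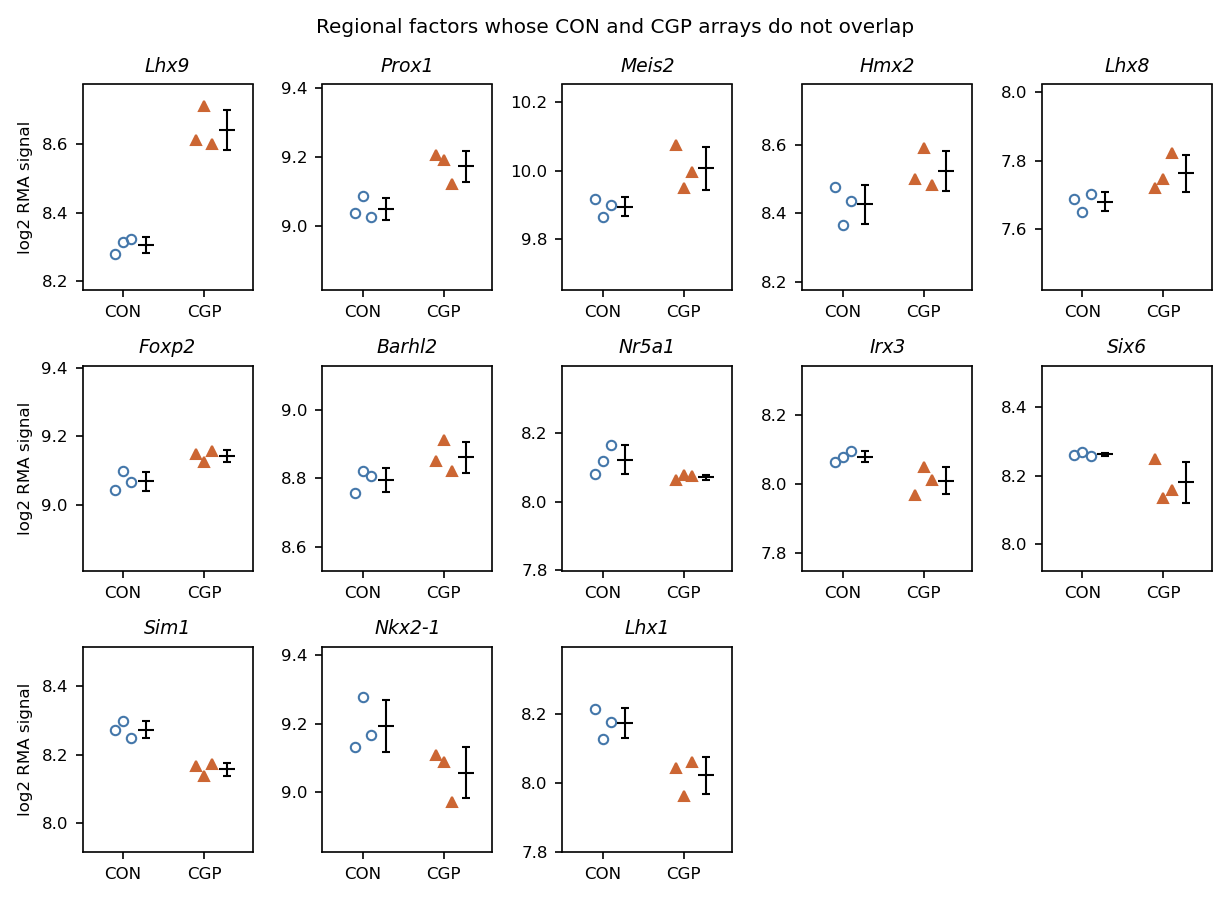
The 13 regional factors whose CON and CGP arrays do not overlap, ordered by difference, with the log2 RMA signal on the vertical axis (each panel spans the same 0.6 units, and levels of different genes are not comparable); CON is drawn as circles and CGP as triangles, and the bars show the mean and SD of 3 arrays. The gap is wide for Lhx9, with CON between 8.278 and 8.324 and CGP between 8.601 and 8.709, and narrow for the other 12, of which none passed the test.

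Lhx9 encodes a LIM-homeodomain factor of the developing thalamus and pretectum that is also made in orexin neurons of the lateral hypothalamus. Its log2 signal was 8.278, 8.315 and 8.324 on the CON arrays and 8.612, 8.709 and 8.601 on the CGP arrays. Every CGP array thus lay above every CON array, with a gap that exceeded the range within either group. The difference was 0.33 (standard error 0.042, adjusted p = 0.0253 from limma), or 1.26-fold, below the 1.4-fold of the study. By p-value Lhx9 was at place 29 of all tested probesets. The call was lost when any 1 array was left out, with an adjusted p from limma of 0.0676 without CGP replicate 1 and up to 0.144 without CON replicate 1, while the difference stayed between 0.30 and 0.35. With the replicate number as a block the adjusted p from limma was 0.119. With an ANOVA of CON and CGP alone, which uses each probeset's own variance, it was 0.174.

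Genes of neighbouring diencephalic tissue were also higher in CGP, and their part in the rise of Lhx9 was not tested. All 8 thalamus markers were wholly higher in CGP, against 7.59% of all tested probesets. The thalamus and habenula lists were chosen with earlier results of these data known, so that such counts are not independent evidence. The mean log2 signal of the thalamus markers lay between 9.90 and 9.93 on the CON arrays and between 10.14 and 10.17 on the CGP arrays. Of these, Ptpn3 (0.36, adjusted p = 0.0249) and Prkcd (0.27, adjusted p = 0.0467 from limma), a protein kinase C of thalamic relay neurons, rose, and 6 did not pass. The Ptpn3 value is that of its brightest probeset, and of its 12 probesets all differed upwards (0.22 to 0.39) while 4 passed. Gbx2, a homeobox gene required for thalamic neurons, differed by 0.20 and Tcf7l2, a Wnt effector with high expression in thalamus, by 0.17, without passing. All 5 habenula markers were wholly higher as well, with a mean between 8.003 and 8.035 in CON and between 8.216 and 8.283 in CGP, and none passed the test (Chrnb4, a nicotinic receptor subunit gene, 0.37, adjusted p = 0.0582 from limma). No marker of either list lay below the signal filter. The orexin gene Hcrt differed by 0.029 (adjusted p = 0.829 from limma), and the melanin-concentrating hormone gene Pmch by -0.018. Hdc, listed with them for the lateral and tuberomammillary hypothalamus, was wholly lower in CGP, at -0.12 (adjusted p = 0.362 from limma), without passing. Whether Lhx9 RNA changed in any given kind of neuron was not tested.

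The 250 bases before the Lhx9 start are shown with those before the start of Lhx1, a LIM-homeodomain gene that did not pass the test, since the pair has the same class of protein and the most opposed differences of the list. Both are from RefSeq on GRCm38.p6, minus strand, written 5′ to 3′ along the gene, and capitals mark CG dinucleotides. The Lhx9 window is chr1:138842445-138842694 and the Lhx1 window chr11:84525535-84525784.
Lhx9: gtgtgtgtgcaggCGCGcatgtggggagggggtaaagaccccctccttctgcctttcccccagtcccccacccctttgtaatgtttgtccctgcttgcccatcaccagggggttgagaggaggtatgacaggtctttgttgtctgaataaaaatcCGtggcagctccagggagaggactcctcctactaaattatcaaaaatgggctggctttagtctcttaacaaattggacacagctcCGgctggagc
Lhx1: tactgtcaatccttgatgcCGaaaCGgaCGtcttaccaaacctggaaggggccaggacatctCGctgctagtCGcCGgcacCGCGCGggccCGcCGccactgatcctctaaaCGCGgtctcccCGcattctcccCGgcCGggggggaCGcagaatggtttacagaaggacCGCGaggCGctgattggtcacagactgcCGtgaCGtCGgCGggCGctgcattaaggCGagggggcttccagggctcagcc
The Lhx9 window holds 4 CG dinucleotides at 53.6% G and C, and the Lhx1 window 26 at 64.8%. The promoter table used here held an entry for 27 of the 35 genes, with 32 windows in all. Their median content of G and C was 58.2%, against 52.4% in the 32851 windows of all genes, and the median ratio of observed to expected CG was 0.684 against 0.374. The letters TAATTA, a core bound by LIM-homeodomain proteins that reads the same on both strands, were in 0 of the 32 windows and in 4.84% of all windows. The 32 windows are too few to tell 0 from that share, and the difference was not tested. The letters TATAAA on either strand were in 5 of the 32 (15.6%) and in 12.4% of all.

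The other factors that belong to several territories were mostly on the same side as Lhx9, and none passed the test. Besides Lhx9 the group holds 7 factors, of which 6 had positive differences, with a median of 0.060. Prox1, a homeodomain factor of the thalamus and of hippocampal granule cells, had log2 signals of 9.04, 9.09 and 9.02 in CON and of 9.21, 9.19 and 9.12 in CGP. The lowest CGP array was above the highest CON array by a small step, and CGP exceeded CON by 0.12 (standard error 0.040, limma adjusted p = 0.343). Foxp2, a forkhead factor found in thalamic and striatal neurons, was at 9.04, 9.10 and 9.07 in CON and at 9.15, 9.12 and 9.16 in CGP, a difference of 0.074 between groups that lay just apart. Irx3, an Iroquois homeodomain factor, was the one in the group with a lower mean in CGP, at 8.06, 8.08 and 8.10 in CON and at 7.97, 8.05 and 8.01 in CGP, a difference of -0.070. Its neighbour Irx5 differed by 0.039 with overlapping arrays. Onecut2 (0.063), Nkx2-2 (0.060), which patterns the ventral neural tube, and Sox14 (0.014), a factor of GABAergic neurons in the thalamus, also overlapped, and Sox14 had the largest standard error of the list, 0.072.

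Of the paraventricular factors, Sim1 was lower in CGP and Otp was not, and neither passed the test. Sim1 (a bHLH-PAS protein) and Otp (a homeodomain protein) are both required for the neurosecretory neurons that make oxytocin, vasopressin, CRH and TRH. The Sim1 signal was 8.27, 8.30 and 8.25 in CON and 8.17, 8.14 and 8.17 in CGP. The groups were tight and did not meet, and the difference was -0.11 (95% interval -0.20 to -0.035, adjusted p = 0.325 from limma). Otp differed by 0.036 with overlapping arrays. The peptide genes of these neurons differed by no more than 0.061 either way, with Oxt at 0.061, Crh at 0.0064, Avp at -0.0093 and Trh at -0.032, and all 4 had an adjusted p of at least 0.643 from limma. By narrow steps, Oxt was wholly higher and Trh wholly lower in CGP, while Crh and Avp overlapped.

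The tuberal factors, which serve the ventromedial, arcuate and dorsomedial nuclei, were split between both directions. Of 10 factors, 4 were higher and 6 lower in CGP, with a median of -0.032, and none passed the test. Nkx2-1, without which the ventral hypothalamus does not form, was at 9.13, 9.28 and 9.17 in CON and at 9.11, 9.09 and 8.97 in CGP. The difference of -0.14 (95% interval -0.26 to -0.012, adjusted p = 0.422 from limma) was the largest of the region, and CGP replicate 1 lay close under CON replicate 1. Its close relative Nkx2-4 differed by 0.092 in the other direction, with overlapping arrays. Nr5a1, the nuclear receptor that defines ventromedial neurons, was at 8.08, 8.12 and 8.17 in CON and at 8.06, 8.08 and 8.07 in CGP. The groups were apart by a margin seen only in the third decimal, and the difference was -0.050. The ventromedial zinc finger gene Fezf1 (-0.054) and Nr0b1 (-0.11), which encodes a partner of the Nr5a1 protein, overlapped between groups, and Nr0b1 was the dimmest probeset of the list, at 6.90 in CON.

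Among the arcuate factors, Hmx2 was at 8.48, 8.37 and 8.44 in CON and at 8.50, 8.59 and 8.48 in CGP, a difference of 0.098 (adjusted p = 0.494 from limma) between groups that barely failed to meet. Hmx3, which acts with Hmx2 in neurons that make growth hormone releasing hormone, differed by 0.096, and its arrays overlapped. The Ghrh signal itself differed by -0.10 and did not pass. Bsx, a factor of the neurons that make Npy and Agrp, differed by -0.083, and Npy by -0.094. None of the 5 measured arcuate peptide genes passed, and those with groups apart were Tac2, at 0.15, and Cartpt, at -0.24 (adjusted p = 0.0696 from limma). The factors of the Pomc neurons were nearer to 0, with Tbx3 at 0.034 and Isl1 at -0.014.

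In the suprachiasmatic and anterior group Lhx1 and Six6 were lower in CGP and Six3 was not, and none of the 3 passed the test. Lhx1 maintains the coupling of clock neurons in the suprachiasmatic nucleus. Its signal was 8.22, 8.13 and 8.18 in CON and 8.04, 7.96 and 8.06 in CGP, the most negative difference of the list at -0.15 (95% interval -0.25 to -0.053, limma adjusted p = 0.289), and the groups did not overlap. Six6, a homeodomain factor needed for the eye and the suprachiasmatic nucleus, was at 8.26, 8.27 and 8.26 in CON and at 8.25, 8.13 and 8.16 in CGP. Here CGP replicate 1 lay next to the CON arrays while the other two lay lower, and the difference was -0.082. Vip, the peptide gene of suprachiasmatic core neurons, was also wholly lower, with 7.54 ± 0.061 for CON and 7.38 ± 0.078 for CGP (SD over 3 arrays), a difference of -0.16 (adjusted p = 0.346 from limma) that did not pass. The other suprachiasmatic peptide genes differed by 0.081 (Nms) and 0.012 (Prok2), and Six3 by 0.050, with overlapping arrays.

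The factors listed for the preoptic area and the subpallium, most of them of GABAergic neurons, differed by at most 0.112 either way. Of 7 factors, 6 were higher in CGP, none passed the test, and the median was 0.036. Meis2, a TALE homeodomain factor of striatal and other forebrain neurons, was at 9.918, 9.864 and 9.901 in CON and at 10.074, 9.949 and 9.997 in CGP. The groups lay apart, with a difference of 0.11 (95% interval 0.013 to 0.21, adjusted p = 0.412 from limma). Lhx8, which serves cholinergic neurons of the basal forebrain, was at 7.69, 7.65 and 7.70 in CON and at 7.72, 7.75 and 7.82 in CGP, a difference of 0.083, with a narrow step between the groups. Lhx6, a factor of GABAergic neurons, differed by 0.036, and the Dlx genes, which drive GABAergic fate, by -0.057 (Dlx1), 0.024 (Dlx2), 0.036 (Dlx5) and 0.019 (Dlx6), all with overlapping arrays. Beside them, the 5 measured striatal markers were all higher in CGP, with a mean between 9.05 and 9.10 in CON and between 9.15 and 9.19 in CGP and with 0 passing the test, while 4 markers of cortex and hippocampus had a median of -0.0025.

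The mammillary and subthalamic factors did not pass the test either. Barhl1 and Barhl2 are homeodomain factors of both territories, and they went opposite ways. Barhl1 was at 7.39, 7.55 and 7.43 in CON and at 7.24, 7.37 and 7.47 in CGP, which overlapped, at -0.098 between the means (standard error 0.065, limma adjusted p = 0.621). Barhl2 was at 8.76, 8.82 and 8.81 in CON and at 8.85, 8.91 and 8.82 in CGP. Its groups were apart by the last decimal, and the difference was 0.066. Foxb1, the forkhead factor of the mammillary body, differed by 0.055 and Lmx1b, a LIM-homeodomain factor shared with midbrain dopamine neurons, by 0.050. Of 9 midbrain dopamine markers 8 had negative differences, with a mean between 9.29 and 9.33 in CON and between 9.13 and 9.19 in CGP, and Slc6a3, the dopamine transporter gene, fell by 0.39 (adjusted p = 0.0165 from limma). The ninth, Nr4a2, a nuclear receptor of these neurons, was on the side of Lmx1b, with every CGP array above every CON array (0.15, adjusted p = 0.303 from limma).

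Other transcription factors of hypothalamic regions, 22 of 27 measured, showed no change that passed the test, with 13 higher and 9 lower in CGP and a median of 0.025. The largest difference was that of Zic1, a zinc finger factor, with 10.74 ± 0.065 for CON and 10.98 ± 0.015 for CGP (SD over 3 arrays), or 0.24 (adjusted p = 0.0997 from limma), and its arrays lay apart. Pou3f2, a POU factor that acts after Sim1 in neurosecretory neurons, had probesets that disagreed, with 0.0089 for the brighter and -0.33 (adjusted p = 0.226 from limma) for the dimmer. Outside neurons, the markers of the meninges were lower, with 4 of 7 that fell and a mean between 8.949 and 8.968 in CON and between 8.603 and 8.692 in CGP, and those of the choroid plexus had positive differences in 5 of 5, of which 1 rose. Of the 8 anterior pituitary markers 7 had positive differences, 2 of which rose, and Tshb, the thyrotropin subunit gene, was at -0.037. Of the lists of neighbouring brain tissue, pituitary and coverings, 7 had a median further from 0 than the regional factors. So had those of astrocytes (-0.084), oligodendrocytes (-0.057) and microglia (-0.055), as the plot of marker lists shows. The medians for cortex and hippocampus (-0.0025) and for hypothalamic neurons (-0.018) lay nearer to 0. All marker lists were chosen with earlier results of these data known, so that these medians are not independent evidence. The part of these tissues and cell types in the differences of the regional factors was not tested.

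**Figure D3:**
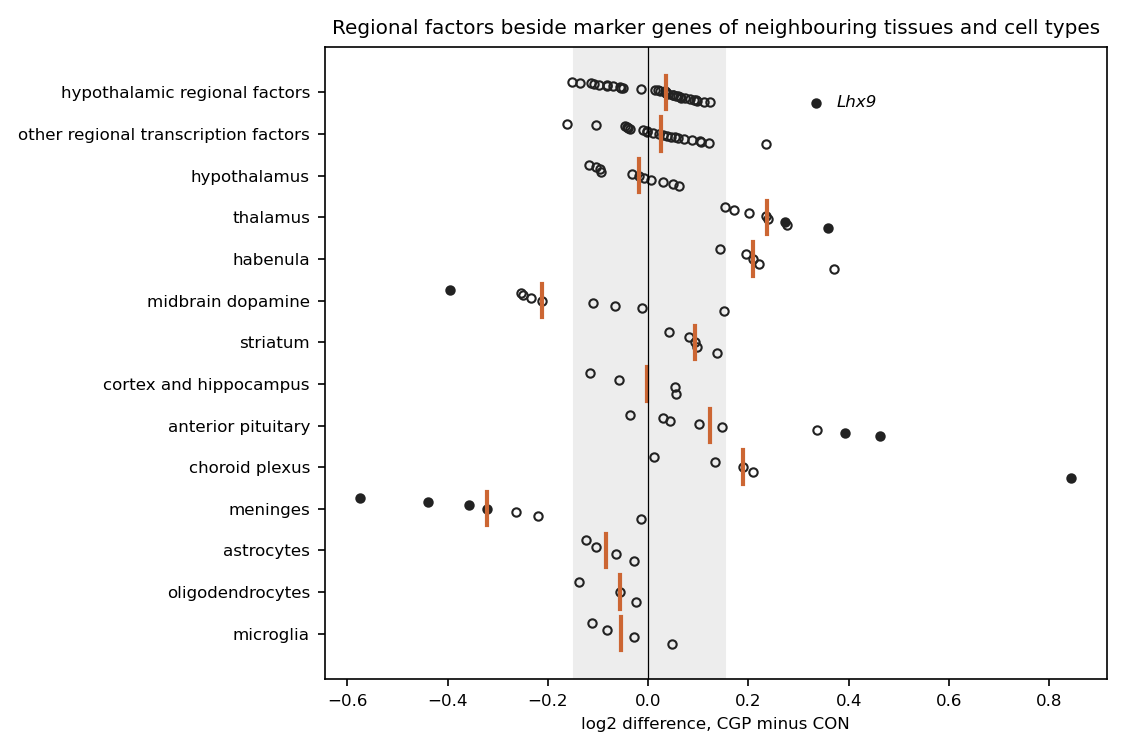
Log2 differences (CGP minus CON, horizontal axis) of the regional factors beside other regional transcription factors and marker genes of tissues and cell types; each circle is a gene, filled where the adjusted p from limma was under 0.05, the vertical tick is the median of the list, and the grey band (-0.147 to 0.154) holds the central 95% of all tested probesets. Lhx9 lies within the ranges of the thalamus, habenula, anterior pituitary and choroid plexus lists (medians 0.24, 0.21, 0.12 and 0.19). It lies above the other 33 factors.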

How the data were processed

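RNA of 6 pooled hypothalamic samples (3 CON, 3 CGP) was hybridised to Affymetrix Mouse Gene 1.0 ST arrays. The authors deposited 1 table of log2 signals for 28471 probesets, made with RMA, which corrects background, makes the arrays' distributions equal and summarises probes, and with Partek, per the submitters' processing notes. Versions and the genome build are not given there. Values were used as deposited. Probesets with 1 gene in the platform annotation (18690) and a mean of at least 6 were tested, which removed 451. The groups were compared by limma 3.58.1 (R 4.3.3, lmFit and eBayes) with Benjamini-Hochberg adjustment over 18239 probesets. Groups came from the titles. The test was checked on simulated arrays with known fold changes. Correlations of arrays were 0.997 to 0.998 inside a group and 0.996 to 0.998 across groups, none held the same values, and their medians lay between 8.19 and 8.21. The number of arrays limits the precision, and no detection call was used. Members, regions, peptide genes and marker lists were chosen with earlier results of these data known. All factors are named, and values are given on every array for those that passed the test, those whose groups lay apart and the largest difference of each region. Where a gene outside the list had several probesets, the brightest stands for it. Alternatives changed the filter, the probesets tested, the scaling, the variance model, array weights, the block, the fold threshold and the arrays used. Promoter windows came from the RefSeq table of GRCm38.p6.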

Additional observations from a re-analysis of the deposited data

How the results depend on the processing

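The count of regional factors higher in CGP, 1 in the main analysis, was 0 with all probesets of the table tested, with an ANOVA of CON and CGP alone, with the replicate block and with a change of at least 1.4-fold, and it was 0 to 0 when 1 array was left out. It was 1 under the other 6 alternatives, and the count of factors that fell was 0 in all of them. Lhx9 kept its direction in the 15 alternatives that refit the model and its call in 6, with an adjusted p between 9.72e-04 (limma, trended and robust eBayes) and 0.174 (the ANOVA of CON and CGP, whose variance is not moderated). Fewer arrays, and with the replicate block fewer degrees of freedom (adjusted p = 0.119), are part of these settings, and the cause of the lost call over all probesets (adjusted p = 0.132) was not tested. No other factor was called in any alternative, and 30 of the 34 kept their direction in all. The exceptions, over the left-out arrays, were Sox14 (-0.0281 to 0.0908), Dlx2 (-0.0265 to 0.067), Isl1 (-0.0478 to 0.0117) and Lhx6 (-0.0023 to 0.074). Leaving out 1 array, chosen as an alternative after seeing the data for the counts of groups that lay apart, gave 9 to 11 factors wholly higher in CGP, beside 11% to 14.5% of all tested probesets, against 7 with all arrays. The 11 were without CGP replicate 1, where the share of all was 14.5%. It gave 7 factors wholly lower with each array left out, beside 12.6% to 19.4% of all, against 6. Groups that lie apart stay apart when an array is left out, so these counts could not fall and do not test the separation. Replicate numbers gave no pairing of arrays, with correlations of same-numbered deviations of 0.078, -0.18 and 0.11 and with 1 of 3 CON arrays closest to its own number. Signals near 6 are compressed by background, which touches mainly Nr0b1.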

Other observations

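Several of the regional factors are encoded side by side in the genome, with no other protein-coding gene between them in the RefSeq gene table of GRCm38.p6. There were 5 such pairs among the 34 measured factors. The log2 differences (CGP minus CON) had the same sign in 3 pairs, Hmx2 and Hmx3 (0.098 and 0.096), Nkx2-2 and Nkx2-4 (0.060 and 0.092) and Dlx5 and Dlx6 (0.036 and 0.019), and opposite signs in Dlx1 and Dlx2 (-0.057 and 0.024) and in Irx3 and Irx5 (-0.070 and 0.039). None of these 10 differences passed the test.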
